A study of Mus musculus with 8 samples.

Results

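Ctgf, Cyr61, Ankrd1, Amotl2, Axl and Tgfb1 are genes that fibroblasts express in response to YAP and to TGF-β. The genes were taken by name from the tables of read counts, and 5 of the 6 were found there, out of 10690 genes in at least 1 of 3 tables and 9875 genes in all 3. Tgfb1, which encodes a TGF-β ligand, was not analysed here. Ctgf and Cyr61 are the names in the tables of the genes now also written Ccn2 and Ccn1.

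The RNA came from NIH3T3 cells, an immortal mouse fibroblast line grown in DMEM with calf serum and labelled as proliferating. NT cells received no arsenite, AS cells were exposed to 250 µM sodium arsenite, an oxidant and proteotoxic poison, for 1 h, and RC4 and RC8 cells had the same exposure and then 4 h or 8 h of recovery in normal medium. A single QuantSeq FWD library, in which each read lies near the 3′ end of a polyadenylated transcript, represents each condition. The authors ran MAAPER, which assigns such reads to known polyadenylation sites (PASs), on each stressed library together with NT, and each pair gave 1 deposited table of counts by gene and 1 of fractions by PAS.

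YAP and its paralog TAZ are transcriptional coactivators that the kinases of the Hippo pathway keep in the cytoplasm, and that enter the nucleus and bind TEAD factors when cells spread, are under mechanical tension or meet serum lipids. TGF-β signals through a receptor kinase complex that phosphorylates SMAD proteins. Both routes act on shared genes in fibroblasts, and Ctgf is a textbook target of each.

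The roles of the 5 genes differ. Axl is a receptor tyrosine kinase of the TAM family, whose ligand is Gas6. Amotl2 is an angiomotin-family scaffold that binds YAP and restrains it, and is itself a YAP target. Ctgf and Cyr61 encode secreted matricellular proteins of the CCN family, which bind integrins and growth factors. Ankrd1 encodes an ankyrin repeat protein found in the nucleus and at the sarcomere of muscle cells.

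In mm9 with GENCODE vM1, Axl lies at chr7:26542292-26573724 on the minus strand, Amotl2 at chr9:102619002-102635748 on the plus strand, Ctgf at chr10:24315248-24318489 on the plus strand, Cyr61 at chr3:145309935-145312949 on the minus strand and Ankrd1 at chr19:36186455-36194334 on the minus strand. TEAD factors bind GGAATG, so the 250 bases before the start were read from the RefSeq promoters used here, in which Axl, Amotl2, Cyr61 and Ankrd1 were matched. No promoter was matched to Ctgf. Coordinates of these promoters are on GRCm38.p6, and capitals mark GGAATG or its reverse complement CATTCC.

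Axl promoter, chr7:25788734-25788983, - strand: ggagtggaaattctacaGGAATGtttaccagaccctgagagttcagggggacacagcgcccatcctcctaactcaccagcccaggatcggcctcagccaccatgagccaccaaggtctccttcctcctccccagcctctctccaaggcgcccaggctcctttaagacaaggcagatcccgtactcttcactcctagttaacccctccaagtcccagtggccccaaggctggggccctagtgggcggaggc

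Amotl2 promoter, chr9:102717554-102717803, + strand: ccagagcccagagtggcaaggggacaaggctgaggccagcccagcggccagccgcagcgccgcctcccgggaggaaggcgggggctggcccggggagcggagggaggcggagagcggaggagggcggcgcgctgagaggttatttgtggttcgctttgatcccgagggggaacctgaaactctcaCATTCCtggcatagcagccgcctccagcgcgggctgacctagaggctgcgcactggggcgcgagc

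Cyr61 promoter, chr3:145649986-145650235, - strand: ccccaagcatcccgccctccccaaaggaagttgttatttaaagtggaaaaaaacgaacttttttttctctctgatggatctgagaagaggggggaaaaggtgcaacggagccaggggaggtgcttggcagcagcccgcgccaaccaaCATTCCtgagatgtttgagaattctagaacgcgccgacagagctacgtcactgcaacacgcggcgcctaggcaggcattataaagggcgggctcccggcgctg

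Ankrd1 promoter, chr19:36119845-36120094, - strand: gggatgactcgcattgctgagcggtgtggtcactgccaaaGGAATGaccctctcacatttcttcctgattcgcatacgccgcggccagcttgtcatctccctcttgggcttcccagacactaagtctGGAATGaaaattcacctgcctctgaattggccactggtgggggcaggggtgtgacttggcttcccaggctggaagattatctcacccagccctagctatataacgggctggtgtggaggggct

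GGAATG was found in 4 of the 4 promoters, on either strand, against 12.6% of 32851 mouse promoters of the same length and 10.4% of the 9938 promoters of genes in the tables. The match began 233 bases before the start in Axl, 65 in Amotl2, 103 in Cyr61, and 210 and 123 in Ankrd1. CAGACA, a SMAD-type motif, was present in 1 of the 4, Ankrd1, where it began 137 bases before the start, and in 17.1% of all promoters. The TATAAA box was present in 1 of the 4, Cyr61, at 25 bases before the start, against 12.4% of all promoters, and the CArG box bound by SRF was in 0 of the 4 against 1.47%. Motifs were searched on both strands. In these promoters no match of one motif overlapped that of another. The genes were named as responsive to YAP, which binds TEAD factors, so the GGAATG count is not independent of how they were chosen. Such letters in a window are a description and not a measure of binding.

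Between 22.4 M and 23.0 M reads fell on genes in each library, and each gene had at least 50 reads in both libraries of a table. The counts of a library were deposited in 2 columns that were summed as 1 sample. Over genes with reads in both columns, the columns differed by no more than sampling noise. Between 43 and 93 genes of a library had 0 reads in a column, which is more than sampling noise, and were left out of that comparison. Of the fibroblast markers 10 of 10 were listed, whereas 0 of 17 markers of epithelial, endothelial, leukocyte and muscle cells were in any table. Such markers do not identify the NIH3T3 line, and a gene with fewer than 50 reads would not be listed. Among 12 listed arsenite-inducible genes, 7, 11 and 7 were at least 2-fold higher than in NT in AS, RC4 and RC8, with Hspa1b, the inducible HSP70, at 5.15-fold, 55.9-fold and 2.14-fold. Of all genes, 0.622%, 3.69% and 2.97% were at least 2-fold higher in these libraries. Since a condition had 1 library, nothing could be checked against a replicate and no test between conditions was run. Every interval below is a 95% interval that covers the counting of reads only, and PCR copies cannot be told from separate molecules. AS, RC4 and RC8 were each set against the same NT library, so the 3 comparisons are not independent.

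Levels are given in reads-per-million (RPM) units, the reads of a gene scaled to all reads on genes of its library. A QuantSeq transcript yields reads from its 3′ end whatever its length, so that RPM needs no division by length to compare genes. In RNA of whole cultures, expression by fewer cells and less RNA in each cell cannot be told apart.

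The 5 genes did not move as a block, as their levels in the 4 libraries show. Ctgf was much higher in RC4 and RC8 than in NT and AS. Cyr61 was already higher in AS and stayed near that level. Axl, Amotl2 and Ankrd1 were all lowest in RC4, and Amotl2 and Ankrd1 were highest in RC8.

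**Figure D1:**
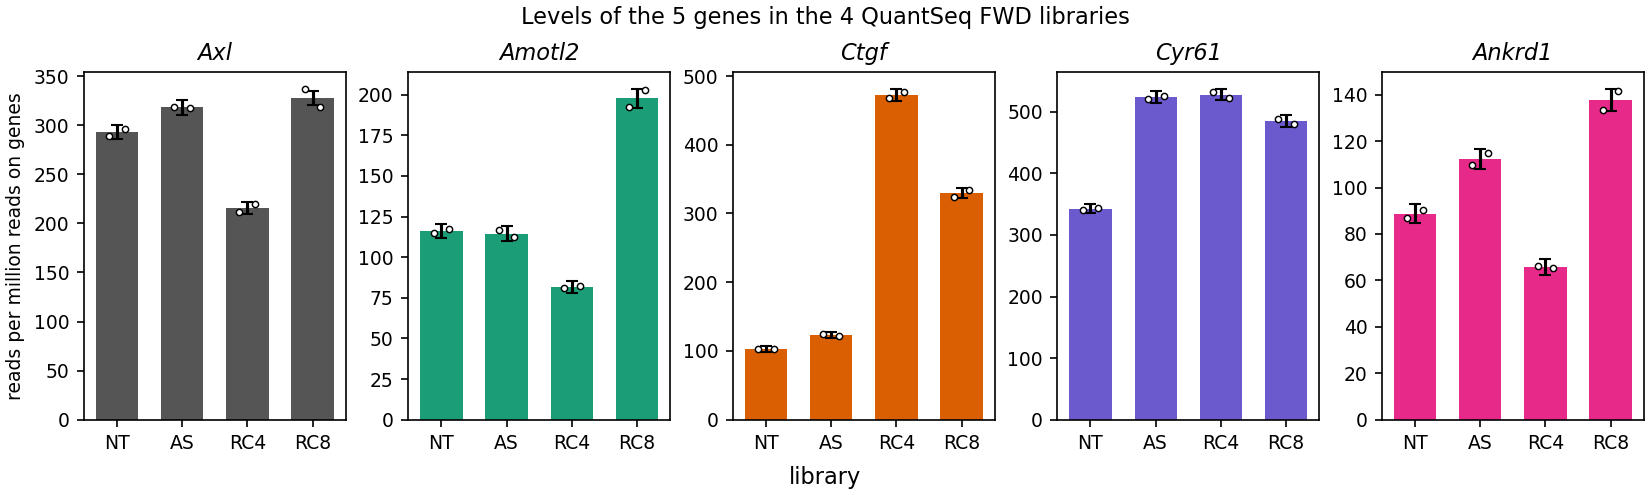
RPM (vertical axes, each starting at 0 with its own scale) of Axl, Amotl2, Ctgf, Cyr61 and Ankrd1 in the NT, AS, RC4 and RC8 libraries, with bars for the summed counts, error bars for the 95% Poisson interval and open circles for the 2 deposited count columns. Ctgf steps up from 123 RPM in AS to 472 RPM in RC4, whereas Axl, Amotl2 and Ankrd1 have their shortest bar in RC4.

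Axl, the receptor, was among the more abundant transcripts in NT, where 93.9% of genes had a lower level. It was at 293 RPM in NT (6613 reads), 318 RPM in AS (7142 reads), 216 RPM in RC4 (4945 reads) and 328 RPM in RC8 (7536 reads). RC4 was thus the low library and NT, AS and RC8 lay within a narrow range. AS over NT gave a ratio of 1.09 (interval, 1.05 to 1.12), RC4 over NT 0.736 (0.709 to 0.764) and RC8 over NT 1.12 (1.08 to 1.15). Axl in AS and RC8 differed from NT by more than counting error, but the size was small and the 2 count columns of RC8 gave 1.16 and 1.07. The ratios lay inside the bulk of the tables, since a lower ratio was found for 75.1% of the genes of the AS table, 40.4% of the RC4 table and 63.0% of the RC8 table.

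Amotl2, the YAP-binding scaffold, was at 116 RPM in NT (2622 reads), 115 RPM in AS (2570 reads), 81.5 RPM in RC4 (1865 reads) and 198 RPM in RC8 (4548 reads). AS and NT could not be told apart at this depth, at a ratio of 0.986 (0.934 to 1.04). RC4 was lower than NT, at 0.700 (0.659 to 0.743), and RC8 was higher, at 1.70 (1.62 to 1.79), a ratio exceeded by 657 of 10441 genes. Between RC4 and RC8 the level of Amotl2 differed by a factor of 2.43 (2.30 to 2.56).

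Ctgf, the CCN protein best known from fibrosis, had the largest ratios of the 5 genes in RC4 and RC8. It was at 103 RPM in NT (2326 reads), 123 RPM in AS (2763 reads), 472 RPM in RC4 (10816 reads) and 329 RPM in RC8 (7570 reads). The high libraries were RC4 and RC8, and RC4 was the higher of them. AS over NT gave 1.2 (1.13 to 1.26), RC4 over NT 4.58 (4.38 to 4.79) and RC8 over NT 3.20 (3.05 to 3.35). Only 42 of 10081 genes in RC4 and 44 of 10441 genes in RC8 had a higher ratio. From AS to RC4 the ratio was 3.84 (3.68 to 4.00), and from RC4 to RC8 it was 0.697 (0.677 to 0.718).

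Cyr61, the CCN protein that serum and growth factors induce within minutes to hours in fibroblasts, was the most abundant of the 5 in each of the 4 libraries. It was at 343 RPM in NT (7738 reads), 524 RPM in AS (11753 reads), 528 RPM in RC4 (12088 reads) and 485 RPM in RC8 (11154 reads). All 3 stressed libraries lay above NT and close to each other. AS over NT gave 1.53 (1.49 to 1.57), RC4 over NT 1.54 (1.49 to 1.58) and RC8 over NT 1.42 (1.37 to 1.46), and the ratio of RC4 to AS was 1.01 (0.983 to 1.03). The modest ratio in AS stood high in a comparison with few high ratios: it was exceeded by 174 of 10452 genes, where the RC4 ratio was exceeded by 750 of 10081 genes and the RC8 ratio by 1521 of 10441.

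Ankrd1, the ankyrin repeat protein, was the least abundant of the 5 genes in NT, RC4 and RC8. Its level was 88.8 RPM in NT (2005 reads), 112 RPM in AS (2518 reads), 65.6 RPM in RC4 (1503 reads) and 138 RPM in RC8 (3166 reads). It alternated between higher and lower levels from one library to the next. AS over NT gave 1.26 (1.19 to 1.34), RC4 over NT 0.738 (0.690 to 0.789) and RC8 over NT 1.55 (1.47 to 1.64). Between AS and RC4 the ratio was 0.585 (0.549 to 0.624), and between RC4 and RC8 it was 2.1 (1.97 to 2.23).

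The order of the levels changed with the library. In NT it ran Cyr61, Axl, Amotl2, Ctgf, Ankrd1, with no overlap of the intervals of neighbours. In AS, Ctgf, Amotl2 and Ankrd1 followed Cyr61 and Axl, and the intervals of Ctgf (119 to 128 RPM) and Amotl2 (110 to 119 RPM) met at their ends while those of Amotl2 and Ankrd1 (108 to 117 RPM) overlapped widely. In RC4, Ctgf had moved to the second place behind Cyr61. In RC8, Ctgf (322 to 337 RPM) and Axl (320 to 335 RPM) shared the second place, as their intervals overlapped. The summed level of the 5 genes was 943 RPM in NT, 1192 RPM in AS, 1364 RPM in RC4 and 1477 RPM in RC8.

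Against all genes, few of the 5 passed a 2-fold ratio. In AS, 0 of 5 were at least 2-fold higher and 0 of 5 at least 2-fold lower, where 0.622% and 3.22% of 10452 genes were. In RC4, 1 of 5, Ctgf, was at least 2-fold higher and 0 were 2-fold lower, where 3.69% and 13.4% of 10081 genes were. In RC8 the same held for Ctgf, and 2.97% and 3.53% of 10441 genes were 2-fold higher and lower. With shares of this size among all genes, a count of 0 or 1 in 5 says little of the group. The level was above NT, by any amount, for 4 of the 5 genes in AS, for 2 in RC4 and for 5 in RC8. The share of all genes above NT by any amount was not computed. The median log2 ratio of the 5 was 0.26, −0.44 and 0.63, next to −0.04, −0.30 and 0.01 for all genes.

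The stressed libraries were also compared with each other. From AS to RC4, Ctgf alone of the 5 was at least 2-fold higher and 0 were 2-fold lower, where 5.89% and 10.6% of 9940 genes were. From RC4 to RC8, 2 of 5, Amotl2 and Ankrd1, were at least 2-fold higher, where 13.2% of 9972 genes were, and 0 were 2-fold lower, where 2.13% were. Axl was 1.52-fold higher over the same step (1.46 to 1.57), and Cyr61 was lower, at 0.919 (0.895 to 0.943). The median gene was 1.2-fold higher in RC8 than in RC4, and the count of 2 depends on the scaling. Amotl2 was at 1.98 by TMM, 1.96 by the median of ratios to NT and 2.02 relative to the median gene of the step, and Ankrd1 was at 1.71, 1.69 and 1.75, so that 0, 0 and 1 of the 5 genes were 2-fold higher. Ctgf from AS to RC4 stayed above 2-fold under these 3 scalings, at 4.47 to 4.60.

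The RC4 library had a skewed distribution, and this touches each RC4 ratio. The median gene was at 0.810 of its NT level in RPM, with 372 genes at least 2-fold higher and 1347 at least 2-fold lower. Scaled to the median gene, 643 genes were 2-fold higher and 643 were 2-fold lower in RC4, and by TMM factors the numbers were 628 and 667. On the scale of the median gene, Ctgf was at 5.65 and Cyr61 at 1.90 of the NT level, whereas Axl was at 0.909, Amotl2 at 0.864 and Ankrd1 at 0.911. The low RC4 values of Axl, Amotl2 and Ankrd1 were therefore mostly shared with the median gene, and each of the 5 genes kept its side of NT under both scalings.

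**Figure D2:**
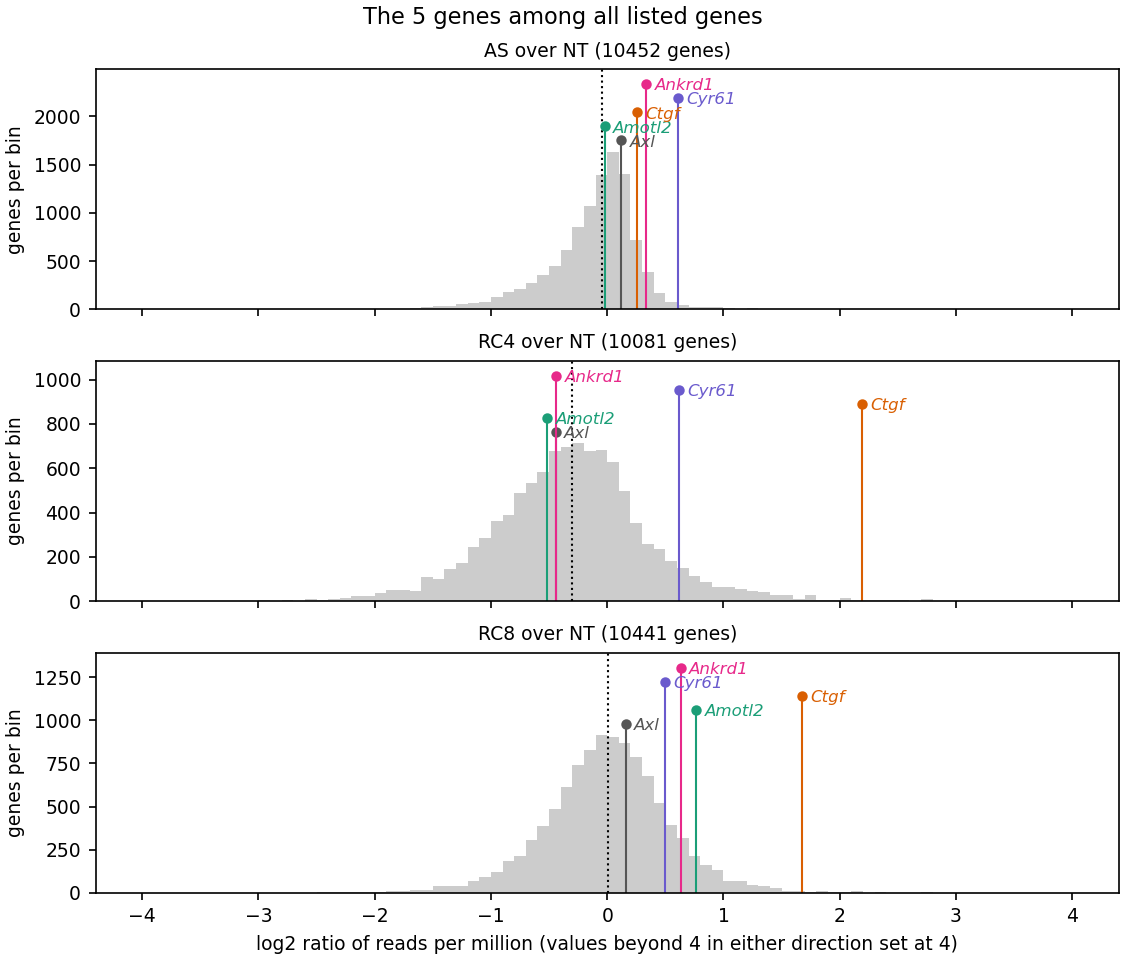
Histograms of the log2 ratio of RPM to NT over all listed genes (grey, number of genes per bin of 0.1) in AS, RC4 and RC8, with a coloured stem for each of the 5 genes and a dotted line at the median gene. Stem heights only separate the labels. In RC4 the stems of Axl, Amotl2 and Ankrd1 stand in the bulk near the median of −0.30 while Ctgf stands at 2.19, and in RC8 all 5 stems lie to the right of the median.

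Ratios between the genes within a library do not depend on depth or scaling. For each read of Cyr61 NT had 0.301 reads of Ctgf, AS had 0.235, RC4 had 0.895 and RC8 had 0.679. The pair of secreted CCN genes thus differed in timing, Cyr61 gaining on Ctgf in AS and Ctgf gaining on Cyr61 in recovery. Ctgf reads per Ankrd1 read went from 1.16 in NT and 1.1 in AS up to 7.20 in RC4 and back to 2.39 in RC8. Amotl2 reads per Ankrd1 read stayed within 1.02 to 1.44, at 1.31 (NT), 1.02 (AS), 1.24 (RC4) and 1.44 (RC8). Among the 7 pairs computed, this pair had the smallest fold between highest and lowest. Axl with Ankrd1 was not among those pairs, so the steadiest pair of the 5 genes was not determined. Of all reads of the 5 genes, Ctgf held 10.9% (NT), 10.3% (AS), 34.6% (RC4) and 22.3% (RC8), while Axl held 31.0% of them (NT), 26.7% (AS), 15.8% (RC4) and 22.2% (RC8). Shares sum to 100%, so the share of Axl in RC8 was below that in NT although its level was not.

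**Figure D3:**
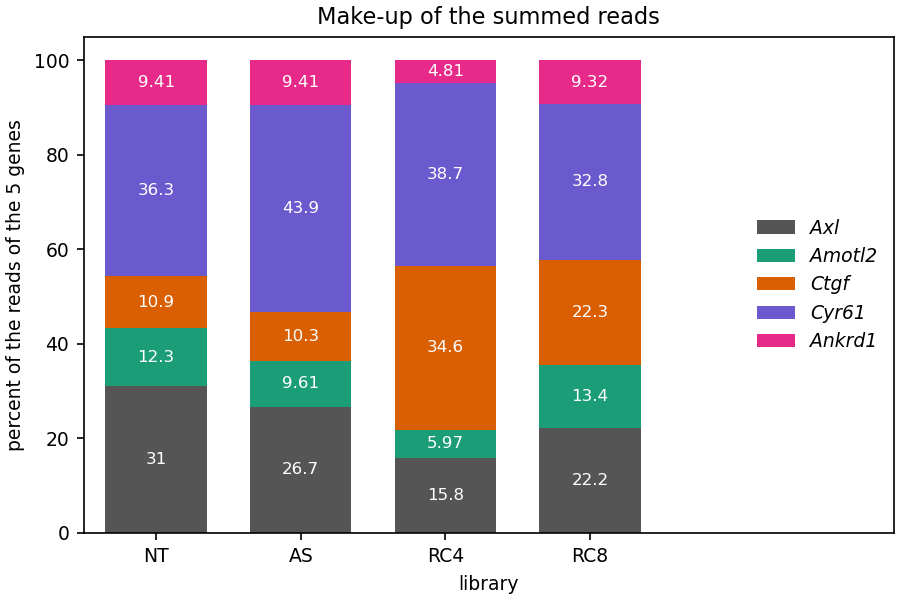
Percent of the summed reads of the 5 genes (vertical axis) that belonged to each gene in NT, AS, RC4 and RC8, as stacked bars with the percent printed in each segment. The Ctgf segment widens from 10.3% in AS to 34.6% in RC4, and the Axl, Amotl2 and Ankrd1 segments are narrowest in RC4.

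Likeness of pattern was measured as the Euclidean distance over the 3 log2 ratios to NT, among 7814 genes of all 3 tables with at least 200 reads in every library. Ctgf had few close neighbours: Tubb2a, a β-tubulin, was nearest at 0.272, with ratios to NT of 1.28 (AS), 4.48 (RC4) and 3.81 (RC8), followed by Gm12551 at 0.336 and Nif3l1 at 0.344. Cyr61 was nearest to Snord49a, a small nucleolar RNA gene, at 0.0913, then to Meikin and Bet1l. Axl was nearest to Nsun4 at 0.0304, then to Mapkap1 and Lemd2. Amotl2 was nearest to Kdm2b at 0.0309, then to Twf2 and Nubp2, and Ankrd1 to Mtx1 at 0.0725, then to Ccdc12 and Tjap1. Among the 5 genes themselves the closest pair was Amotl2 and Ankrd1, at 0.390, with 193 genes nearer to Amotl2 than Ankrd1 was. The distance between Ctgf and Cyr61 was 2.0. These distances rest on 3 ratios with a common denominator and describe the pattern only.

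The 3′ ends were read from the PAS tables. Amotl2, Ctgf, Cyr61 and Ankrd1 had a single listed PAS in the 3′-most exon in each table, so 4 of the 5 genes had no alternative PAS to compare, where 47.0% to 49.4% of all genes had 1 listed PAS. The distance from the stop codon to the furthest PAS was 1389 nt in Axl, 1710 nt in Amotl2, 1072 nt in Ctgf, 690 nt in Cyr61 and 742 nt in Ankrd1. The windows from 35 to 6 nt before the PAS, where the poly(A) signal usually sits, follow with AATAAA in capitals and coordinates on mm9. For Axl the windows of its most distal PAS and of the PAS common to all 3 tables are given.

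Amotl2, chr9:102635711-102635740, + strand: atgacagtattttAATAAAaaaagagctta

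Ctgf, chr10:24318454-24318483, + strand: ttgaaAATAAAgtatatatatattttttat

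Cyr61, chr3:145309946-145309975, - strand: taaaattaatcatttAATAAAgaaatattt

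Ankrd1, chr19:36186461-36186490, - strand: atattttatatttatAATAAAtgcaaacta

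Axl, chr7:26542298-26542327, - strand: gaggctcagatcacataaaacttttgtcag

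Axl, chr7:26542429-26542458, - strand: agcctgtgcgatgcactgggaatgcctgct

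Each gene with a single PAS had AATAAA, starting 22 nt before the PAS in Amotl2, 30 nt in Ctgf, 20 nt in Cyr61 and 20 nt in Ankrd1. The 4 PASs of Axl had neither AATAAA nor ATTAAA in this window, where 51.3% of 18269 PASs in 3′-most exons had either of them. The absence of these letters describes the window alone.

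Axl was the gene with alternative PASs, and its PAS at 26542423 on chromosome 7 was listed in all 3 tables. In the table of AS the more distal PAS at 26542292, 131 nt downstream, took 43.5% of reads in NT and 44.3% in AS. In the table of RC4 this distal PAS took 53.4% in NT and 50.7% in RC4, the PAS at 26542423 took 32.0% and 34.5%, and another at 26542620 took 14.5% and 14.8%. In the table of RC8 the distal PAS was listed 25 nt away, at 26542317, and took 50.1% in NT and 55.0% in RC8. The changes were small and ran in different directions, toward the proximal PAS in RC4 and toward the distal PAS in RC8.

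The relative expression difference (RED) between the PAS at 26542423 and the distal PAS of its table, the log2 ratio of distal over proximal reads in the stressed library minus that in NT, was 0.05 (counting error 0.05) for AS, −0.18 (0.06) for RC4 and 0.28 (0.05) for RC8. The counting error, like the intervals of the PAS fractions, leaves out the error of assigning reads to PASs 106 or 131 nt apart. For the same NT library, 56.5%, 32.0% and 49.9% of Axl reads were put at 26542423 in the tables of AS, RC4 and RC8. The mean end position of Axl reads differed from NT by 1.05 nt in AS, by −4.17 nt in RC4 and by 5.19 nt in RC8, with positive values downstream. The largest change at a PAS of Axl was 0.8 percentage points for AS, 2.7 points for RC4 and 4.9 points for RC8, so that Axl reached 10 points in none of the 3 tables. Of the genes with over 1 PAS, 10 points were reached by 15.3% of 5287 genes in AS, by 29.1% of 5343 genes in RC4 and by 27% of 5357 genes in RC8, and 89.9%, 77.9% and 58.1% of these genes had a larger change than Axl. The NT fractions of Axl differ between tables because MAAPER chose another set of PASs in each, so only the values within a table can be set against each other. Differences taken across tables turned the sign of changes in AS, RC4 and RC8.

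**Figure D4:**
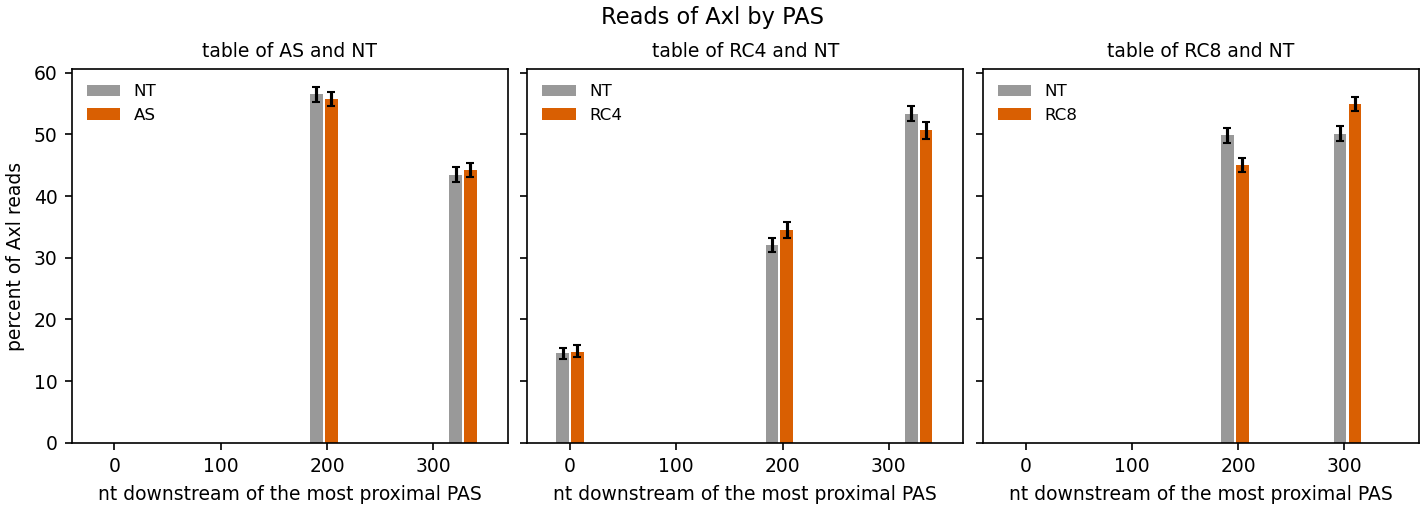
Percent of Axl reads (vertical axis) at each listed PAS, placed by its distance in nt downstream of the most proximal PAS (horizontal axis), for NT (grey) and the stressed library (orange) in the tables of AS, RC4 and RC8, with 95% Wilson intervals. The 2 bars of a pair differ by at most 4.9 percentage points, while the grey NT bars differ between tables with the set of PASs.

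ATTTA, the core of AU-rich elements that shorten the life of many induced mRNAs, was counted between the stop codon and the furthest PAS. Cyr61 had 5 copies in 690 nt and Ankrd1 had 4 in 742 nt, more per kb than 97.2% and 93.9% of 7192 genes. Ctgf had 2, Amotl2 had 1 and Axl had 0, and 65.6% of the genes had at least 1. The densest stretches of Cyr61, 641 nt past the stop codon, and of Ankrd1, 175 nt past it, are shown with ATTTA in capitals, with overlapping copies each counted and coordinates on mm9.

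Cyr61, chr3:145309960-145309989, - strand: agagaATTTATTTAtaaaattaatcATTTA

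Ankrd1, chr19:36186993-36187022, - strand: cacttttATTTAttcctacctATTTATTTA

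The Cyr61 stretch overlaps the window of its poly(A) signal printed above. The genes with the most copies, Cyr61 and Ankrd1, did not share a pattern of levels across the 4 libraries.

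Other genes of the pathways were taken from fixed lists, in which some genes stand more than once. Of 25 other YAP/TEAD targets, 21 were listed, with 1 at least 2-fold higher and 2 lower in AS, 1 higher and 4 lower in RC4, and 2 higher and 3 lower in RC8. As given above, 3.69% of all genes were 2-fold higher and 13.4% lower in RC4, and 2.97% and 3.53% in RC8. Their median log2 ratio was −0.32 (AS), −0.59 (RC4) and −0.14 (RC8), each below the median of all genes. Gadd45a, a stress and growth arrest gene that other stress pathways induce as well, was at 2.07 in AS and 3.38 in RC4, and its relative Gadd45b was at 2.36 in RC8. The kinase gene Nuak2 was at 2.45 in RC8. On the lower side were Dock5 (0.347) and Ptpn14 (0.462) in AS, Arhgef17 (0.289), Birc5 (0.350), Vgll3 (0.403) and Foxf2 (0.419) in RC4, and F3 (0.433), Birc5 (0.436) and Foxf2 (0.468) in RC8. Birc5, the mitotic survivin gene, is also a marker of dividing cells.

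The Hippo core list, which holds the kinases, their scaffolds and the TEAD factors, lay mostly below NT in AS. There 22 of 23 listed genes were below NT, with a median log2 ratio of −0.42 against −0.04 for all genes. The share of all genes below NT was not computed, but 53.3% of them had a ratio below 0.986 in AS. In the list only Lats1 (0.424), a kinase that phosphorylates YAP, and Wwc2 (0.454), a scaffold of LATS, were past 2-fold. In RC4, 1 of 22 was 2-fold higher, Taok3 (2.11), and 1 was lower, Taok2 (0.281), and in RC8, 1 of 23 was higher, Tead4 (2.14), and 1 was lower, Tead3 (0.402). Of all genes, 3.22% were 2-fold lower in AS, 3.69% were higher and 13.4% lower in RC4, and 2.97% and 3.53% in RC8. The coactivators stayed within 2-fold. Yap1, which encodes YAP, was at 162 RPM in NT, 123 RPM in AS, 197 RPM in RC4 and 179 RPM in RC8, and Wwtr1, which encodes TAZ, was at 62.2 RPM in NT, 46.5 RPM in AS, 89.9 RPM in RC4 and 59.9 RPM in RC8. Both were thus lowest in AS and highest in RC4, where Ctgf was highest but Axl, Amotl2 and Ankrd1 were lowest. A link between these levels was not tested.

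TGF-β ligands, receptors and SMADs gave 0 of 22 past 2-fold in AS, 1 higher and 4 lower of 23 in RC4, and 0 higher and 1 lower of 23 in RC8. For comparison, RC4 had 13.4% of all its genes 2-fold lower and 3.69% higher. The RC8 shares of all genes were 3.53% lower and 2.97% higher. Beside such shares, these few genes say little of the list. The SMAD corepressor Skil, itself a TGF-β target, was at 2.57 in RC4, while the TGF-β co-receptor Tgfbr3 was at 0.213 in RC4 and 0.363 in RC8. Tgif2 (0.208), Smad6 (0.425), an inhibitory SMAD, and Tgfbr2 (0.439), the ligand-binding receptor, were low in RC4. The median log2 ratio in RC4 was −0.26, close to −0.30 for all genes, and was 0.05 when scaled to the median gene.

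TGF-β target genes were split. Of 28 listed, 0 were past 2-fold in AS, 5 were higher and 3 lower in RC4, and 2 were higher and 2 lower in RC8, to be read beside the same shares of all genes, 3.69% and 13.4% in RC4 and 2.97% and 3.53% in RC8. Pmepa1 (3.39), Skil (2.57) and the p21 gene Cdkn1a (2.56), which p53 and stress also induce, were high in RC4, and Timp1 (2.67) was high in RC8. The collagen gene Col3a1 was low in RC4 (0.367) and RC8 (0.288), as were Thbs1 (0.339) and Id1 (0.354) in RC4 and Col1a2 (0.468) in RC8. The list median in RC4 was −0.04 on the log2 scale and 0.26 when scaled to the median gene, and it was −0.29 when genes under 200 reads in either library were left out, so neither its size nor its side of NT was stable.

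**Figure D5:**
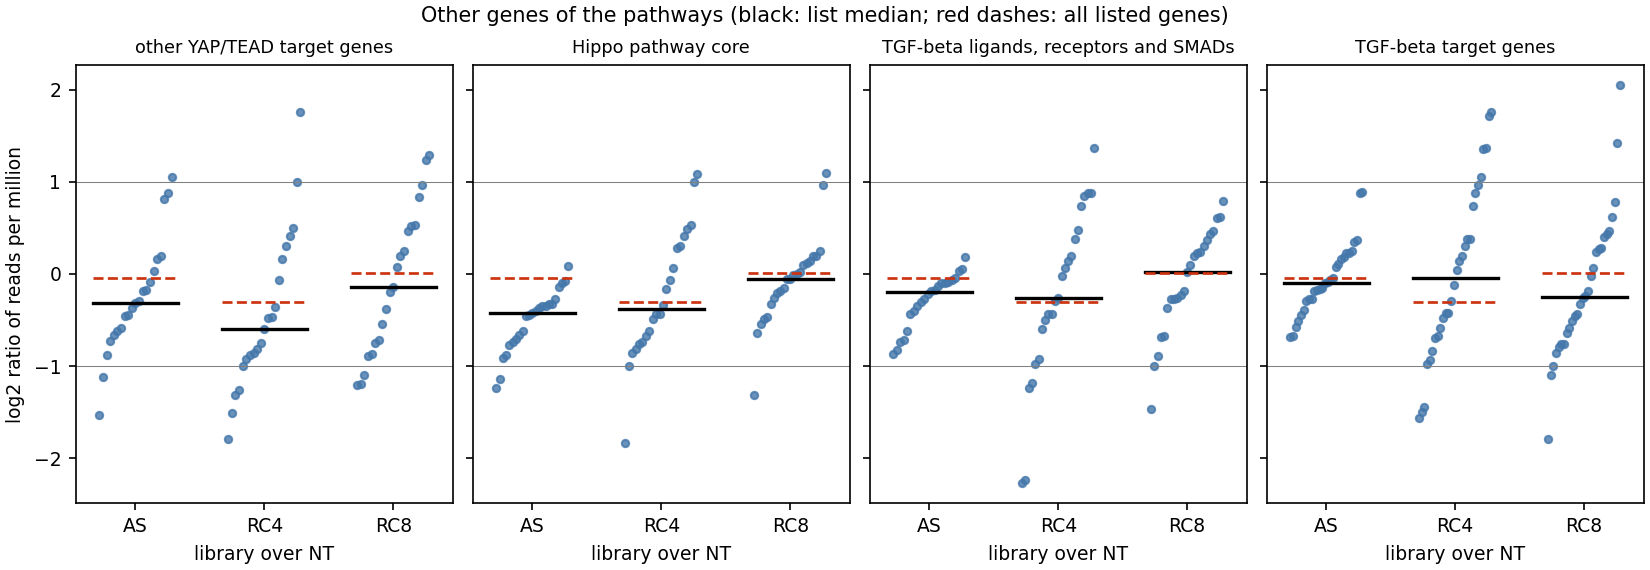
Log2 ratio of RPM to NT (vertical axis) for each listed gene of the 4 pathway lists in AS, RC4 and RC8 (points in order of size), with black bars at the list median, red dashes at the median of all genes and thin lines at a 2-fold ratio. The points of the TGF-β targets spread to both sides in RC4 and RC8, and the points of the Hippo core lie almost all below 0 in AS.

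Relatives of Ctgf, Cyr61 and Axl were in the tables as well. Among the CCN genes, Wisp1 was at 130 RPM in NT, 120 RPM in AS, 182 RPM in RC4 and 46.6 RPM in RC8, and so was low in RC8 (ratio 0.358) where Ctgf was high. Of the TAM receptors and their ligands, Tyro3 and Gas6 stayed within 2-fold of NT, and Pros1, a TAM ligand, was at 0.364 in RC8. Axl was at 216 to 328 RPM and Tyro3 at 8.95 to 14.0 RPM, so Axl was the more abundant TAM receptor of the 2 that were listed.

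The summed level of the fibroblast markers was lower in recovery. Over 10 genes it was 14595 RPM in NT, 15174 RPM in AS, 11624 RPM in RC4 and 8768 RPM in RC8. Most of this sum was S100a4, at 10272 RPM in NT, 8089 RPM in RC4 and 5715 RPM in RC8, and Fn1 was at 1.03 and 1.04 of its NT level in RC4 and RC8. None was 2-fold higher, and 0, 3 and 4 of 10 were at least 2-fold lower in AS, RC4 and RC8, where 3.22%, 13.4% and 3.53% of all genes were, among them Pdgfrb at 0.220 in RC4 and Col3a1 at 0.288 in RC8. Ctgf was high in the same RC4 and RC8 libraries, and whether the lower markers had a part in the levels of the 5 genes was not tested.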

How the data were processed

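One QuantSeq FWD library of each of NT, AS, RC4 and RC8 was analysed. The authors trimmed reads with bbmap, mapped them to mm9 with STAR (version 2.5.2a in the submitters' processing notes) and ran MAAPER with PolyA_DB v3. Read counts per gene were deposited as whole numbers without normalization, for genes with at least 50 reads, in 2 columns per library that were summed. The first condition of each table was taken as NT, because the 3 tables share its counts. The fraction of a gene's reads at each PAS was deposited for NT and the stressed library of a table, and was printed as percent. The number and type of PASs were used as deposited. Columns of the authors' own comparisons hold P values and RED and RLD scores, and were not used.

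RPM was the count over all reads on genes of that table. Intervals were exact Poisson for levels, Clopper-Pearson for ratios and Wilson for shares, at 95%. Only the ratio intervals were tested on simulated data. The simulated counts were drawn as Poisson, so variation beyond the counting of reads was not covered. Ratios were recomputed with edgeR (version 4.0.16) TMM factors, the median of ratios, a minimum of 200 reads, single count columns and the NT of another table. PAS changes were recomputed with a minimum of 10% and the NT of another table. No test was possible, since 1 library per condition leaves no residual degrees of freedom. The members and lists were chosen with earlier results of these data known. The text names the 5 genes, of each list up to 4 genes by size past 2-fold in each direction, and the 3 nearest genes of each; Yap1, Wwtr1, Wisp1, Tyro3 and Gas6 were added after their values were seen. Another gene that this rule selects is counted in its list and is not reported here. Values of QuantSeq REV libraries were not analysed here. Scripts used Python 3.11.15, pandas 2.3.3, scipy 1.17.1 and R 4.3.3.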

Additional observations from a re-analysis of the deposited data

How the results depend on the processing

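No paired analysis was possible because each condition has 1 library. Of the ratios of the 5 genes recomputed under other settings, 77 moved by less than counting error and 13 by more. Some of these settings took NT from another table. The NT counts of the 5 genes were almost the same in each table, so those ratios could hardly move. Amotl2 in AS, whose interval holds 1, was the only ratio to cross 1, at 1.02 by TMM, 1.01 by the median of ratios and 1.02 with the first count column. In RC4, TMM and the median of ratios gave 0.900 and 0.909 for Axl, 0.856 and 0.864 for Amotl2, 5.6 and 5.65 for Ctgf, 1.88 and 1.90 for Cyr61, and 0.902 and 0.911 for Ankrd1. TMM gave 1.58 for Cyr61 in AS, and the single count columns gave 1.16 and 1.07 for Axl in RC8. These 2 scalings moved the RC4 median by 0.29 and 0.30 on the log2 scale, and there gave 628 and 643 genes at least 2-fold higher and 667 and 643 lower. With at least 200 reads in each library, 26 genes in AS and 170 in RC8 were 2-fold higher, and 206 in AS, 812 in RC4 and 230 in RC8 were lower, fewer genes being tested. For the step from RC4 to RC8, scalings chosen after seeing the data left 0 (TMM), 0 (median of ratios) and 1 (median gene of the step) of the 5 genes 2-fold higher.

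With NT fractions from another table, the Axl PAS at 26542292 changed by −9.1 points in AS (NT of the RC4 table) and 7.2 points in RC4 (NT of the AS table), both with the sign turned. The PAS at 26542423 changed by 23.7 and 5.8 points in AS (NT of the RC4 and RC8 tables), with the sign turned, by −22 and −15.4 points in RC4 (NT of the AS and RC8 tables), reversed, and by −11.5 and 13 points in RC8 (NT of the AS and RC4 tables), the last reversed. Each table has its own set of PASs, so these differences follow from the sets. Depth limits single genes little, at 1503 reads or more for each of the 5 genes, and the lack of a second culture limits every comparison.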
